A study of Homo sapiens with 6 samples.

Results

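The genes described here are 10 members of the Wnt/β-catenin pathway that are studied in colorectal cells: CTNNB1, APC, AXIN1, AXIN2, NKD1, RNF43, ZNRF3, TCF7L2, LEF1 and ASCL2. They were picked by name from the pathway and not by a cut on their values, although earlier results of these data were known. They are 10 of the 20083 protein-coding genes with a single locus on chromosomes 1 to 22 and X. For each gene, END-seq peaks were counted over a window made of the gene body (hg19) and 5 kb on either side. END-seq ligates an adapter to the free ends of DNA double-strand breaks (DSBs) in agarose-embedded cells, so that the DNA to the right of a break gives a forward-strand peak and the DNA to the left a reverse-strand peak. A break whose ends are both captured gives both peaks, and a single captured end gives one.

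HCT116 is an established human colorectal carcinoma line with an activating mutation in one copy of CTNNB1. The cells were left untreated (Ctrl) or received camptothecin (CPT), which traps topoisomerase I in a cleavage complex with DNA (Top1cc), at 10 µM for 10 min (CPT10) or for 20 min (CPT20), and murine pre-B cells served as a spike-in. Each condition had 2 biological replicates, all of them from this 1 cell line. Titles of the samples attach 10 and 20 to a concentration, but the protocol and design text attach them to minutes, and minutes are used here. Peak lists of the 4 CPT libraries were analysed. The Ctrl libraries were the input of the authors' peak calling and no peaks of theirs were analysed here, so each value is set against the neighbouring sequence or the whole library rather than against untreated cells. The lists carry no expression values, and the cell type label could not be checked from them.

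In the Wnt pathway, β-catenin, the product of CTNNB1, is held at a low level by a destruction complex of APC and the AXIN scaffolds, and Wnt ligands that bind Frizzled receptors stop this destruction. β-catenin then enters the nucleus and works with TCF/LEF factors such as TCF7L2 and LEF1. RNF43 and ZNRF3 are ubiquitin ligases that remove Frizzled receptors from the cell surface, and NKD1 acts on Dishevelled in the cytoplasm. AXIN2, NKD1, RNF43, ZNRF3, LEF1 and ASCL2 are known target genes of the pathway, and most colorectal cancers carry a mutation in APC or CTNNB1.

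The 4 libraries differed in size. On chromosomes 1 to 22 and X, CPT10 replicates 1 and 2 held 1415310 and 1049214 peaks, and CPT20 replicates 1 and 2 held 1219114 and 573511. In CPT10 replicate 1 forward peaks made up 41.7% of the list, whereas they made up 50.05% to 50.2% in the other libraries. CPT20 replicate 2 was thus the shortest list, and CPT10 replicate 1 stood apart in its strand balance. Read totals were not used here. Where 4 values follow each other below without names, they belong to CPT10 replicate 1, CPT10 replicate 2, CPT20 replicate 1 and CPT20 replicate 2 in that order.

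The first question was how many peaks the 10 genes held and whether this differed between 10 and 20 min of CPT. Their windows held 791 and 607 peaks in CPT10 replicates 1 and 2, and 746 and 384 in CPT20 replicates 1 and 2. The log2 ratio of CPT20 to CPT10 was -0.31, a difference smaller than that among the libraries of 1 time (exact permutation test, two-sided, p = 0.667). With 2 libraries per time this exact permutation test cannot give less than p = 0.33. The direction turned, to 0.09, when CPT20 replicate 2 was left out. As a share of the library, the same counts were 0.0559% and 0.0579% at 10 min, and 0.0612% and 0.0670% at 20 min. Both CPT20 shares were above both CPT10 shares, a log2 ratio of 0.17 (p = 0.33, the smallest this exact permutation test allows). Many of these peaks lay in TCF7L2 and RNF43, which, with 27.8% of the summed window length, together held 49.9% and 49.1% of the peaks in the CPT10 libraries and 51.9% and 58.1% in the CPT20 libraries.

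Peak density was compared between genes per 10 kb of window and relative to the mean density of each library. The order of the mean over the 4 libraries was TCF7L2, RNF43, AXIN2, CTNNB1, APC, ZNRF3, ASCL2, LEF1, NKD1 and AXIN1. TCF7L2 held 3.0 ± 0.60 times and RNF43 2.95 ± 0.24 times the library density (SD, n = 4), and the values of these 2 genes overlapped. AXIN2 followed at 1.89 ± 0.37, with its highest library (2.41) below the lowest of both leading genes (2.48 for TCF7L2 and 2.596 for RNF43). The next 6 genes, from CTNNB1 at 1.26 ± 0.32 to NKD1 at 0.843 ± 0.18, each overlapped their neighbours in this order, and CTNNB1 overlapped AXIN2. AXIN1 was lowest at 0.468 ± 0.31, and its libraries overlapped those of NKD1.

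**Figure D1:**
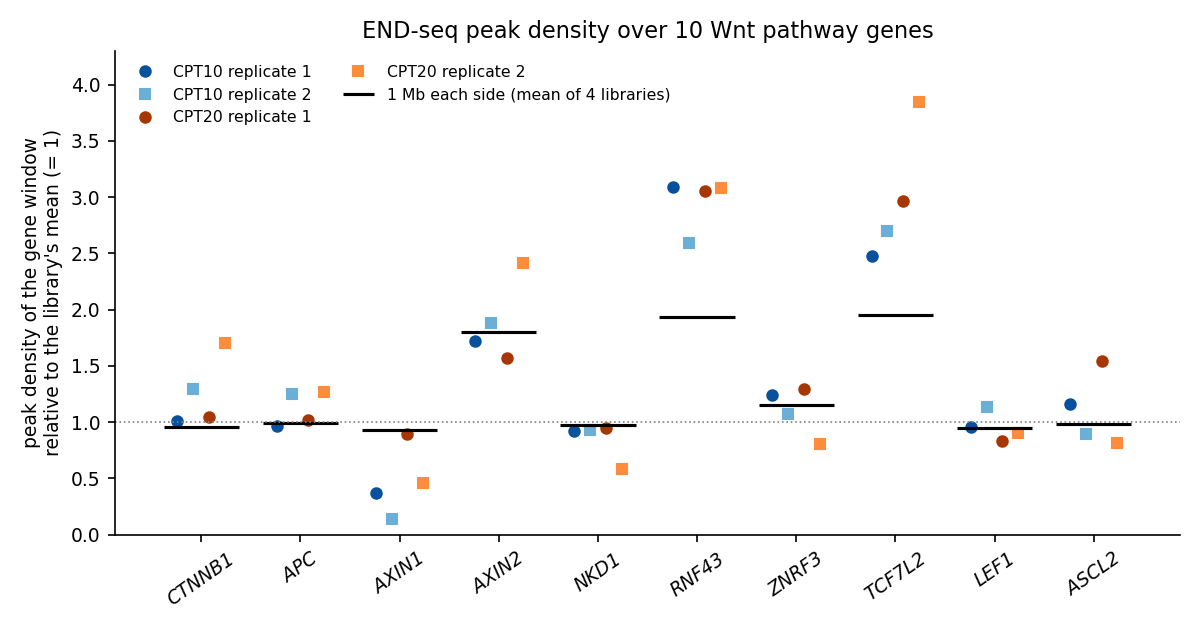
Peak density of the 10 gene windows (y axis, relative to the mean of each library on chromosomes 1 to 22 and X, which is 1). Points are the 4 libraries and the black line is the density of the 1 Mb on each side of the window, averaged over the libraries. TCF7L2 and RNF43 lay above 2.4 in every library and above their surroundings, AXIN2 lay near its raised surroundings, and all 4 points of AXIN1 lay below 1.

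Density also varied between regions of the genome. The 1 Mb on each side of TCF7L2, RNF43 and AXIN2 held 1.95, 1.93 and 1.80 times the library density, whereas the surroundings of the other 7 genes held 0.927 to 1.15 times. These 3 genes lie on the long arms of chromosomes 10 and 17, parts of which are known to be gained in HCT116. Copy number was not measured here, and its part in the raised density was not tested. Each gene was therefore set against its own surroundings, as log2((peaks + 1)/(expected peaks + 1)) with the expected number taken from the 1 Mb on each side, and tested with limma over 19458 protein-coding genes with at least 3 expected peaks. This fit took the libraries of both times together. Its SE and p therefore measure how well the ratio repeated between libraries, and not how uneven density is along the genome. Of the 10 genes, 2 were above (TCF7L2 and RNF43) and 1 was below (AXIN1) their surroundings at an adjusted p under 0.05. Over all genes tested, 19.1% were above and 7.98% below, so 2 and 1 of 10 are close to the background. The median log2 ratio was 0.09 over the 10 genes and 0.07 over all genes.

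**Figure D2:**
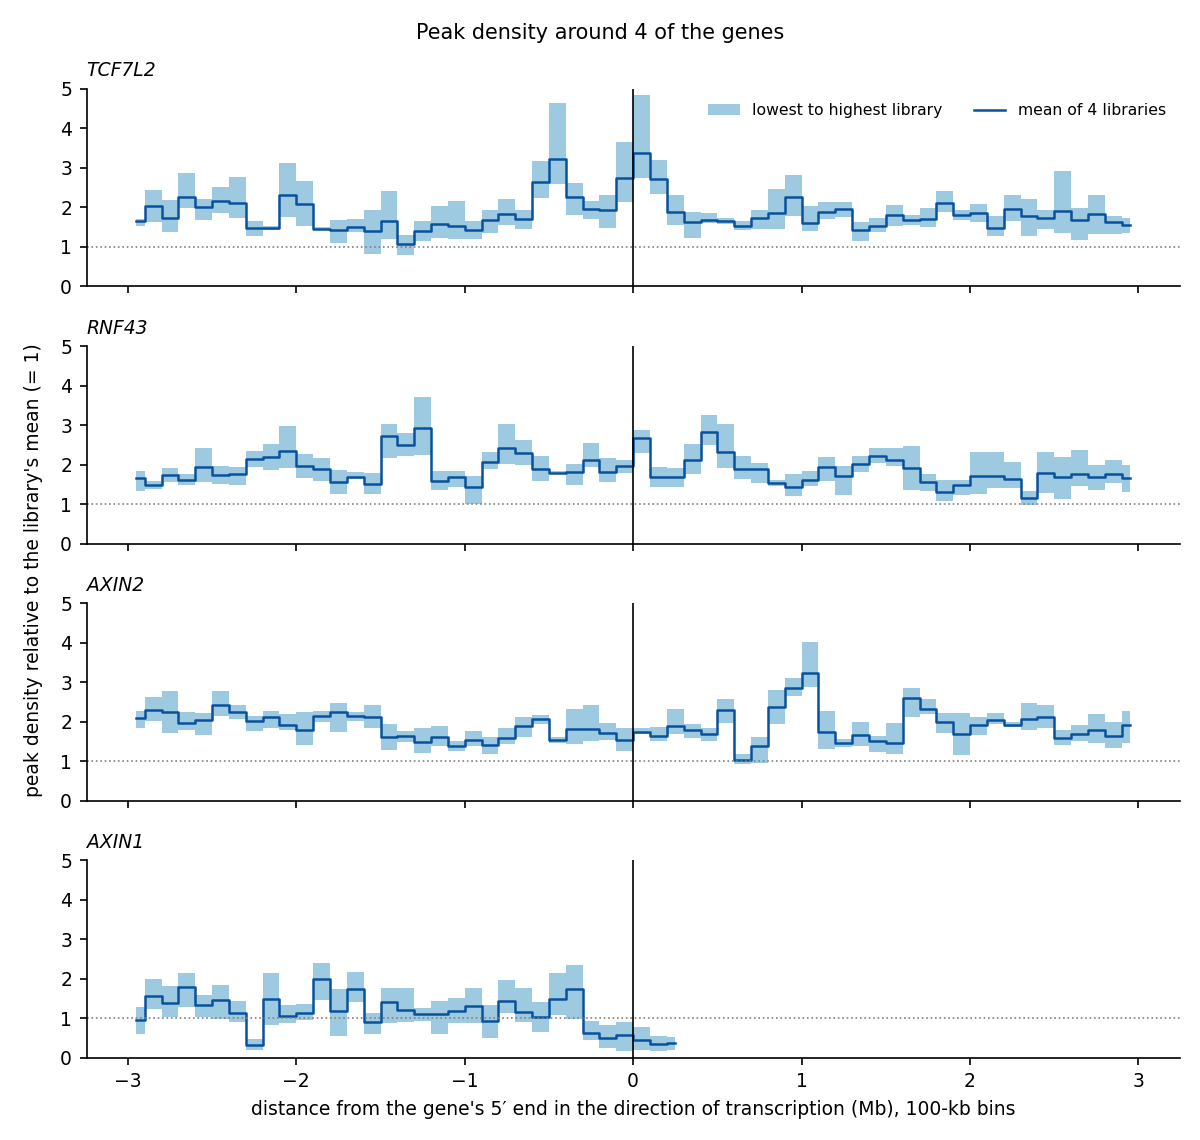
Peak density in 100-kb bins over 3 Mb on each side of the 5′ end of TCF7L2, RNF43, AXIN2 and AXIN1 (y axis, relative to the library mean of 1; positive distances run with transcription). The line is the mean of 4 libraries and the shading spans the lowest to the highest library. The mean of the first 3 regions stayed above 1 in all bins, with 3.38 in the first bin of TCF7L2 and 2.68 in that of RNF43, and AXIN1 lay in a stretch of low density that ends at the tip of chromosome 16.

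CTNNB1 (chr3:41236232-41301587, plus strand), which encodes β-catenin, held 38 and 36 peaks at 10 min and 34 and 26 at 20 min. Its density was 1.04, 1.33, 1.09 and 1.88 times that of the surroundings. The mean log2 ratio was 0.36 ± 0.14 (SE, n = 4) and did not pass (adjusted p = 0.0825 by limma). CPT20 replicate 2 lay farthest above 1. The call changed with the setting: CTNNB1 passed when peaks under a −log10 q of 3 were dropped (log2 ratio 0.61, adjusted p = 0.0186), with every list cut to the length of the shortest (0.50, adjusted p = 0.0347) and with 250 kb on each side as surroundings (0.52, adjusted p = 0.0209), and also with the replicate number as a block (adjusted p = 0.0478).

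APC (chr5:112043215-112181936, plus strand) is the largest scaffold of the destruction complex. Its window held 72 and 69 peaks in the CPT10 libraries and 65 and 38 in the CPT20 libraries, near what its surroundings held (log2 ratio 0.17 ± 0.10, adjusted p = 0.218 by limma). Its peaks were unevenly divided between strands, as described further on.

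AXIN1 (chr16:337440-402723, minus strand), the scaffold whose level limits assembly of the complex, had few peaks: 14 and 4 at 10 min, and 29 and 7 at 20 min. Its density was 0.396, 0.218, 0.679 and 0.583 times that of the surroundings, below 1 in each library. The log2 ratio of -1.12 ± 0.19 (SE, n = 4; limma adjusted p = 7.24e-04) lay at percentile 2.40 of all genes. The low values were not limited to the gene. The 100-kb bins from 300 kb upstream to 300 kb downstream of its 5′ end held 0.359 to 0.632 times the library density, and with only 250 kb on each side as surroundings the log2 ratio was -0.15 (adjusted p = 0.636). AXIN1 has a GC content of 55.5% over its window, above that of 90.1% of genes, and removing a trend on GC left the call in place (log2 ratio -1.16, adjusted p = 3.46e-04).

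AXIN2 (chr17:63524681-63557766, minus strand), the inducible paralogue of AXIN1, held 37 and 30 peaks at 10 min and 29 and 21 at 20 min. Its density matched that of its surroundings to within the spread (0.996, 1.09, 0.849 and 1.25 times; log2 ratio 0.05 ± 0.13, limma adjusted p = 0.798). AXIN2 was thus dense relative to the library only as far as its region was.

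NKD1 (chr16:50582307-50683160, plus strand) held 51 and 38 peaks in the CPT10 libraries and 45 and 13 in the CPT20 libraries. It was below its surroundings in all 4 libraries, by 0.648 to 0.951 times, and did not pass (log2 ratio -0.22 ± 0.11, adjusted p = 0.166 by limma). With 250 kb as surroundings, or with every list cut to the length of the shortest, it did pass (adjusted p = 0.0468 and 0.0217).

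RNF43 (chr17:56431037-56494956, minus strand) held 114 and 71 peaks at 10 min and 97 and 46 at 20 min. These were 1.65, 1.48, 1.47 and 1.51 times the number expected from its surroundings, a range far from 1 in each library. The log2 ratio was 0.60 ± 0.092 (SE, n = 4; limma adjusted p = 3.64e-04), at percentile 87.9 of all genes. Its homologue ZNRF3 (chr22:29279560-29453476, plus strand) held 114 and 73 peaks at 10 min and 102 and 30 at 20 min, which was close to its surroundings (log2 ratio -0.08 ± 0.10, limma adjusted p = 0.608).

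TCF7L2 (chr10:114710006-114927437, plus strand), the TCF factor on which Wnt signalling of the intestinal epithelium depends, held 281 and 227 peaks in the CPT10 libraries and 290 and 177 in the CPT20 libraries. The window held 1.43, 1.47, 1.54 and 1.66 times the expected number in the 4 libraries. The log2 ratio was 0.60 ± 0.067 (SE, n = 4; limma adjusted p = 2.20e-05), and TCF7L2 lay at percentile 88.1. Its surroundings were themselves uneven, since the 100-kb bin from 500 to 400 kb upstream reached 3.24 ± 0.95 times the library density and the first 100 kb of the gene 3.38 ± 0.99 times.

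LEF1 (chr4:108968701-109090112, minus strand), the other nuclear partner of β-catenin among these genes, held 63 and 55 peaks at 10 min and 47 and 24 at 20 min. Its log2 ratio to the surroundings was 0.01 ± 0.10 (limma adjusted p = 0.974). ASCL2 (chr11:2289728-2291818, minus strand), a transcription factor of intestinal stem cells, has a body of only 2.09 kb, and its window held 7 and 4 peaks at 10 min and 8 and 2 at 20 min (log2 ratio 0.12 ± 0.23, adjusted p = 0.728 by limma). With a mean of 4.65 expected peaks, ASCL2 had the widest error of the 10 genes.

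The share of high peaks was also largest over TCF7L2 and RNF43 in both libraries of replicate 1. Those reaching a −log10 q of 10 made up 32.7% of the peaks over TCF7L2 and 30.7% over RNF43 in CPT10 replicate 1, where the other 8 genes reached at most 23.7% and all forward and reverse peaks 15.9% and 15.2%. For CPT20 replicate 1 these shares were 27.6% and 36.1%, with the other 8 genes at 23.5% or less and 11.6% of all peaks on either strand. In CPT10 replicate 2 they were 7.49% and 9.86%, and the highest of the other genes, at 8.33%, lay between them. The shares in CPT20 replicate 2 were 6.78% and 10.9%, above the 4.76% of the highest other gene. This measure and the peak density come from the same lists and are not independent.

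For each gene, CPT20 was compared with CPT10 on peaks relative to the library, centred on the median gene. The 10 genes showed no change that passed limma, and neither did any of the 19458 genes (0.0% higher and 0.0% lower at an adjusted p under 0.05, with 548 at an unadjusted p under 0.05). Of the 10 log2 differences, 5 were above 0 and 5 below. AXIN1 had the largest, 1.26 ± 0.34 (SE, n = 2 per time; unadjusted p = 0.00168, limma adjusted p = 1.00). Its density relative to the library was 0.258 ± 0.16 at 10 min and 0.678 ± 0.31 at 20 min (SD, n = 2 each), and both CPT20 values were above both CPT10 values. Without CPT20 replicate 2 the difference was 1.57 and passed (limma adjusted p = 0.00485). With the replicate number as a block, AXIN1 also passed (limma adjusted p = 0.00196), as 1 of 16 genes higher and 28 lower at 20 min. The next in size were NKD1 at -0.40 ± 0.27 and LEF1 at -0.35 ± 0.27, and TCF7L2 was at 0.28 ± 0.26 with RNF43 at 0.00 ± 0.29.

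The position of peaks within the genes was not used to choose them. The first 5 kb of the 10 genes, counted from the 5′ end, held 1.47 ± 0.50 times the density of the surroundings (SD over 4 libraries), against 1.37 ± 0.14 over all protein-coding genes. The rest of the gene bodies held 1.21 ± 0.034 times against 1.02 ± 0.0044. The genes behind both pooled values differed. In the rest of the body TCF7L2 held 1.41 to 1.65 times, RNF43 1.279 to 1.602 times and CTNNB1 1.158 to 2.07 times the density of the surroundings. APC held 1.02 to 1.40 times, while AXIN1 held 0.272 to 0.643 times. AXIN2, LEF1, NKD1 and ZNRF3 had values on both sides of 1 or below it. RNF43 held 11, 6, 8 and 8 peaks in its first 5 kb, or 1.80 to 3.89 times the surroundings. TCF7L2 held 8, 9, 11 and 8 there, or 1.85 to 3.42 times. AXIN2 held 3, 7, 4 and 6, which was 2.2 and 3.09 times the surroundings in the replicate 2 libraries but 0.696 and 1.01 times in those of replicate 1. AXIN1 reached 3.76 times in CPT20 replicate 2, with 3 peaks. APC, in contrast, held 2 peaks in its first 5 kb in CPT10 replicate 2 and none in the other 3 libraries, and CTNNB1 held 1, 2, 0 and 0.

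A paired site joins a reverse peak to the closest forward peak that overlapped it or began under 150 bp downstream, a definition taken from the methods. TCF7L2 held 57, 41, 68 and 22 sites, and RNF43 held 27, 10, 25 and 7. AXIN2 held 7, 2, 3 and 2, ZNRF3 held 11, 1, 10 and 0, and APC held 8, 3, 1 and 2. TCF7L2 and RNF43 together thus accounted for 73.0% to 82.9% of the sites of the 10 genes in a library. The other 8 genes held from 0 to 11 sites each per library.

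Summed over the 10 genes there were 115 and 63 sites at 10 min and 119 and 35 at 20 min, or 2.95, 3.03, 3.65 and 4.93 times the density of sites in the library. The log2 ratio of CPT20 to CPT10 was -0.21 and smaller than the difference among libraries of 1 time (exact permutation test, two-sided, p = 1.00). Leaving out CPT10 replicate 1 turned it to 0.29, and leaving out CPT20 replicate 2 turned it to 0.42. Relative to their surroundings, sites per 100 kb over TCF7L2 were 25.1 against 11.1, 18.0 against 6.75, 29.9 against 11.45 and 9.67 against 3.45. RNF43 had 36.5 against 13.65, 13.5 against 5.10, 33.8 against 12.9 and 9.47 against 2.65. Both genes thus had more than 2 times the sites of their surroundings in each library, with more peaks on each strand to pair. The order of neighbours was counted as well, among adjacent peaks of opposite strand that did not overlap and lay under 150 bp apart. Over the 10 genes, neighbours with the reverse peak on the left were 28 of 55, 19 of 38, 29 of 53 and 9 of 18, which is 50.9%, 50%, 54.7% and 50%, and the libraries had 50.3%, 52.0%, 50.9% and 53.4%. The 95% Wilson intervals (the narrowest 38.1% to 63.6%) contained both 50% and the library's share, so that an excess of the order a break leaves was not detectable over these genes at this depth. The intervals cover counting error only.

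Sites that overlapped a site of the other replicate of the same time by at least 1 bp were merged into replicated sites. Over the 10 genes, 17 were found at 10 min and 15 at 20 min, and all lay in TCF7L2 (11 and 10) and RNF43 (6 and 5). A replicated site at 10 min was present in 2 of the 10 genes against 11.5% of all protein-coding genes, and one at 20 min in the same 2 genes against 11.0%. The windows of the 10 genes were longer, with a median of 93105 bp against 37212 bp over all genes, and a longer window has more room for a site, so these shares are not matched for length. Clusters present at both times (persistent) numbered 2 in TCF7L2 and 1 in RNF43, and 3.8% of all genes held such a cluster. Clusters found at 10 min only (transient) numbered 9 and 5 (8.95% of all genes held one), and those found at 20 min only (late) numbered 7 and 4 (8.77%). The study used the same class names for sites that also passed a test against untreated cells after spike-in scaling. That step was not taken here, so these classes are not the study's. The 18 clusters of TCF7L2 correspond to 79.1 per Mb, against 14.5 per Mb in the 1 Mb on each side and 1.98 per Mb over chromosomes 1 to 22 and X. The 10 of RNF43 correspond to 135 per Mb against 13.0 per Mb beside it. A replicated cluster needs peaks of both strands in 2 libraries, so cluster density can differ more between regions than peak density does. Whether the clusters exceed what the denser peaks alone would give was not tested. AXIN2 held none, and its surroundings held 20, or 10.0 per Mb, a density at which a window of its length (43086 bp) would hold fewer than 1.

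In TCF7L2, 16 of the 18 clusters lay wholly in introns and 2 overlapped an exon. Of the 18, 7 had their midpoint in the first 20 kb, which is 8.79% of the window. Of the 10 clusters in the RNF43 window, 4 lay in the first 20 kb (27.1% of the window), 5 lay in introns, 2 overlapped an exon and 3 lay in the 3′ flank, inside the neighbouring gene SUPT4H1, which encodes an elongation factor subunit. TSPOAP1-AS1, an antisense gene, overlaps all RNF43 clusters but the one at the 5′ end. A protein-coding gene without a symbol in the annotation overlaps all of the RNF43 clusters, that one included. Only 2 of the 18 and 2 of the 10 clusters overlapped a site in all 4 libraries. Median cluster length was 886 bp in TCF7L2 and 1064 bp in RNF43, and their median GC content (43.95% and 43.4%) was close to that of the windows (44.6% and 42.9%).

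**Figure D3:**
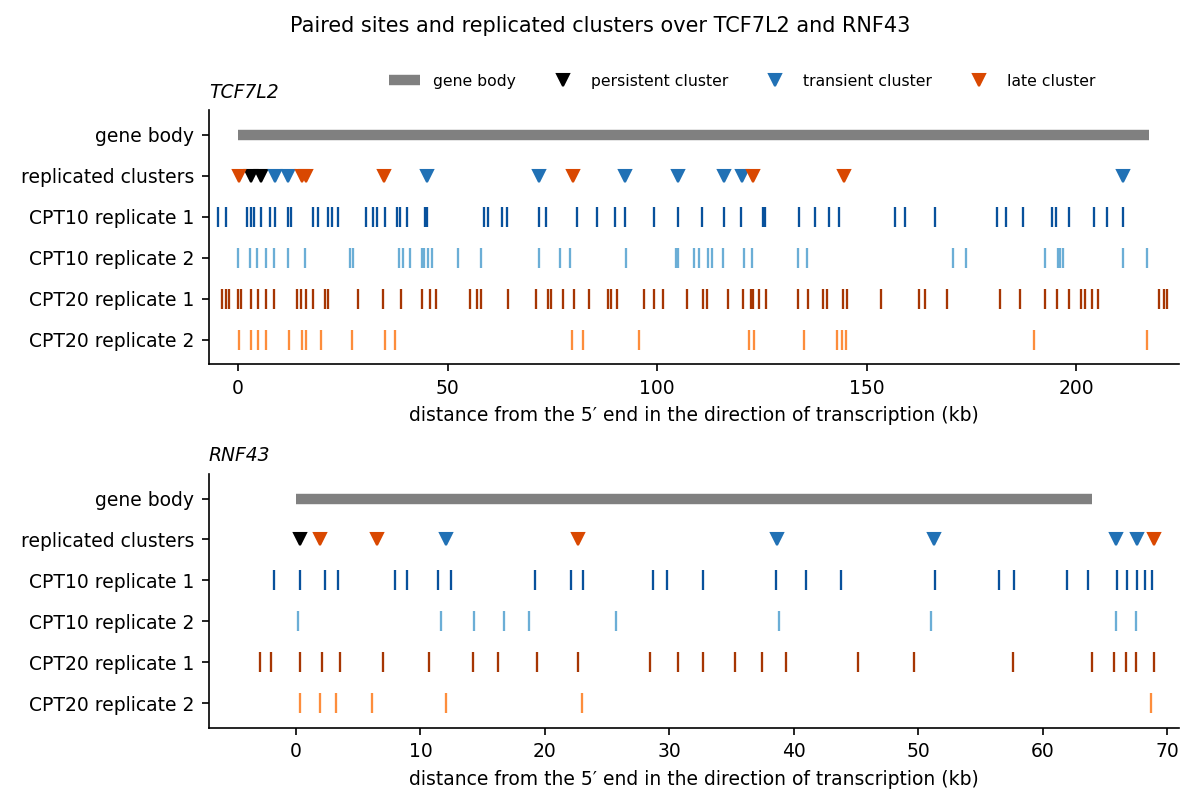
Positions of paired sites over TCF7L2 and RNF43 (x axis, distance in kb from the 5′ end along transcription). Ticks are the sites of each library, triangles are replicated clusters by class, and the grey bar is the gene body. Both genes have a persistent cluster within 6 kb of the 5′ end, and CPT20 replicate 2 has the fewest sites.

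The strongest persistent cluster of TCF7L2 lay at chr10:114714110-114716868, in an intron with its midpoint 5483 bp from the 5′ end. Its paired peaks had a −log10 q of 13.1, 11.9, 12.9 and 7.70 (the lower of the paired peaks in each library). In its best pair per library the forward summits stood at 114714954, 114714909, 114714913 and 114715001, a span of only 93 bp over the 4 libraries. The reverse summits spanned 367 bp, and in 3 of the 4 libraries the forward summit lay to the right of the reverse summit, by 51 to 341 bp. The reference sequence around these forward summits (GRCh37, the build of hg19, plus strand, chr10:114714889-114715021) is shown to place them. Its ends were set from the summits, so that all 4 fall in it by construction, and capitals mark the 4 summit bases:
TCF7L2 intron: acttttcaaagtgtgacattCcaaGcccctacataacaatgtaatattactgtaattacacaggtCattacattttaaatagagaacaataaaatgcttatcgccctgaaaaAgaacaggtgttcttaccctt

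The other persistent cluster of TCF7L2, at chr10:114712615-114713483, was centred 3043 bp from the 5′ end, and its −log10 q was lower, at 6.30, 2.21, 12.9 and 2.58. Its forward summits were spread over 580 bp, and in CPT20 replicate 2 the forward summit lay 384 bp to the left of the reverse summit. The summits of its best pairs therefore did not share a position in the 4 libraries.

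The persistent cluster of RNF43, at chr17:56493905-56495401, covered the 5′ end of the gene, with its midpoint 303 bp inside it. The −log10 q was 23.4, 6.45, 20.0 and 4.10. The forward summits lay within 66 bp of each other, at 25, 74, 23 and 9 bp downstream of the 5′ end, with fold enrichments of 22.1, 8.65, 21.1 and 12.3. The reverse summits lay 738, 273, 587 and 541 bp inside the gene. The forward peak thus sat at the annotated start of transcription in all 4 libraries, and the reverse peak in the first part of the transcript.

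The clusters of a single time followed, in order of the lowest −log10 q. In TCF7L2, a late cluster at chr10:114724872-114725416 had 6.89 and 8.71 in the CPT20 libraries and no site at 10 min. A transient cluster at chr10:114814770-114815317 had 7.30 and 6.40 in the CPT10 libraries and no site at 20 min, as had one at chr10:114801966-114802879, with 8.06 and 4.57. All of these are intronic. Other single-time clusters overlapped a site of the other time as well. The transient cluster at chr10:114721484-114722081 had 5.46 and 5.50 at 10 min and also 9.78 in CPT20 replicate 2.

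In RNF43, a transient cluster in the 3′ flank at chr17:56428629-56429504 had 9.94 and 5.46 at 10 min and also 6.12 in CPT20 replicate 1. The transient cluster at chr17:56481977-56483856 had 8.20 and 5.46 at 10 min, while CPT20 replicate 2 had a site within it (6.70), and a site of CPT20 replicate 1 (7.02) only touched its edge. The late cluster at chr17:56471608-56473057 had 10.9 and 4.93 at 20 min and also 8.06 in CPT10 replicate 1. The class names therefore describe replicated overlap and not absence at the other time.

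The highest peak in any of the 10 windows was a forward peak in the 5 kb past the 3′ end of RNF43, in an intron of SUPT4H1, at chr17:56426183-56426382 in CPT10 replicate 1, and its fold enrichment was 139, 202, 112 and 64.4 in the 4 libraries. By fold it ranked 27, 13, 22 and 33 among all forward peaks of its library. It closed a paired site in CPT10 replicate 1 and in both CPT20 libraries, with a −log10 q of only 3.99, 4.43 and 3.31 for the lower of the paired peaks, and none in CPT10 replicate 2. The reference sequence (GRCh37, plus strand, chr17:56426151-56426242) is shown because of the bases in front of the peak, and capitals mark the 8 bases that end directly before its first base:
RNF43 3′ flank: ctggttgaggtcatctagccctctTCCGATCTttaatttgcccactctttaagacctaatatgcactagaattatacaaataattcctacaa
These 8 bases also end both END-seq adapters given in the study's methods, and the ctct directly before them matches there as well. Among the 1000 forward peaks of highest fold in each library they were the most frequent 8 bases directly before the start, in 26, 41, 18 and 15 of them, and they preceded 0.0103% to 0.0209% of all forward peaks. Reverse peaks showed the same letters, complemented, after their end in 17, 42, 22 and 26 of the 1000 highest. How such peaks arise was not tested. Of the windows described here, only that of RNF43 held a peak with these bases at its start, 1 each in the CPT10 libraries, and in the CPT20 libraries the peak at this place began at another base. Without this peak the RNF43 log2 ratio to its surroundings was 0.58 (limma adjusted p = 4.81e-04), and the late clusters of the 10 genes numbered 10 instead of 11.

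The strands were then compared, because a difference between forward and reverse peaks at APC, LEF1 and CTNNB1 was seen in the counts. The test, limma on log2((forward + 1)/(reverse + 1)) centred on the median gene of each library, was chosen after those values were seen. It also took the libraries of both times together. APC held 41, 49, 49 and 31 forward peaks against 31, 20, 16 and 7 reverse peaks. These are forward shares of 56.9%, 71.0%, 75.4% and 81.6%, above the library share of 41.7% to 50.2% in every library. The log2 ratio was 1.40 ± 0.21 (SE, n = 4; limma adjusted p = 0.00177), at percentile 97.2 of all genes.

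LEF1 was the reverse. It held 13, 23, 11 and 5 forward peaks against 50, 32, 36 and 19 reverse peaks. The forward shares of 20.6%, 41.8%, 23.4% and 20.8% were all below those of the libraries, and the log2 ratio was -1.32 ± 0.23 (SE, n = 4; limma adjusted p = 0.00331). CTNNB1 also leaned to reverse peaks, with 8 against 30, 12 against 24, 16 against 18 and 8 against 18, and a log2 ratio of -0.89 ± 0.25 (SE, n = 4; limma adjusted p = 0.0248).

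Of the 10 genes, 1 was forward-rich and 2 were reverse-rich, while 12.8% and 13.2% of all 19458 genes were, so that uneven strands were common in these lists and not particular to Wnt genes. The other 7 genes had log2 ratios from -0.26 (TCF7L2, limma adjusted p = 0.173) to 0.16 (ZNRF3, limma adjusted p = 0.470). The calls rested on few libraries. Without CPT10 replicate 1 no gene passed, with 6062 at an unadjusted p under 0.05, although the log2 ratios of APC, LEF1 and CTNNB1 were then 1.60, -1.27 and -0.73 (limma adjusted p = 0.0847, 0.104 and 0.163). CTNNB1 also did not pass without CPT10 replicate 2 (adjusted p = 0.0807). Of the called genes, APC and CTNNB1 lie on the plus strand and LEF1 on the minus strand. Summed over the 5 members on the plus strand, the forward share was 43.2%, 48.3%, 51.3% and 47.9%, and over the 5 on the minus strand it was 37.9%, 44.5%, 42.4% and 44%, lower in each library. These sums include the called genes, and the difference was not tested.

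**Figure D4:**
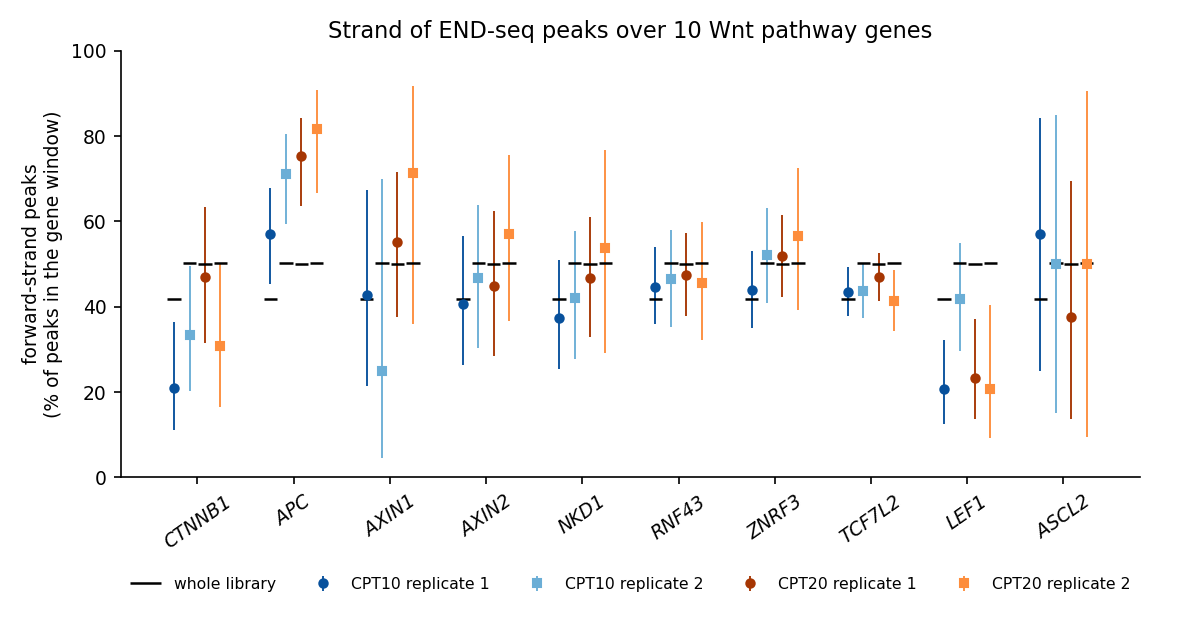
Forward-strand share of the peaks in each gene window (y axis, %) for the 4 libraries, with 95% Wilson intervals that cover counting error only. Short black lines give the share in the whole library. By their points, APC and ZNRF3 lay above and LEF1 and CTNNB1 below the library in all 4 libraries. Only for APC did the interval leave out the library share in all 4. The interval held that share for LEF1 in CPT10 replicate 2 and for CTNNB1 in CPT20 replicate 1. For TCF7L2 it did so in both libraries of replicate 1, and for each of the other 6 genes in all 4 libraries.

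The imbalance did not stop at the ends of these genes, and it did not extend over their whole region. Over the 1 Mb on each side, the forward share was 43.0%, 48.2%, 50.8% and 48.6% for APC, and 40.2%, 50.4%, 47.8% and 50.8% for LEF1, near that of the libraries. Relative to this neighbourhood, APC, LEF1 and CTNNB1 all still passed (log2 ratios 1.42, -1.28 and -0.96; limma adjusted p = 0.00205, 0.00379 and 0.0200). In bins of 50 kb, the mean was towards forward peaks in 13 bins in a row around APC, from 400 kb left to 250 kb right of its 5′ end, and all 4 libraries agreed in 10 of the 13. This stretch of 650 kb held 624 forward and 368 reverse peaks over the 4 libraries, a forward share of 62.9% where the 4 libraries together had 47.3%. Just right of it the mean changed sign. Around LEF1, 8 bins in a row over 400 kb leaned to reverse peaks in the mean (220 forward and 396 reverse, 35.7% forward), and around CTNNB1 7 bins over 350 kb did so (163 and 312, 34.3%). All 4 libraries agreed in 7 of the 8 bins at LEF1 but in only 4 of the 7 at CTNNB1. The reverse run at CTNNB1 began 50 kb left of its 5′ end, and the 4 bins before it leaned to forward peaks, with a log2 ratio of 1.84 ± 1.1 in the bin from 150 to 100 kb left against -0.98 ± 0.60 in the first 50 kb right of the 5′ end (SD, n = 4). TCF7L2 showed a smaller lean to reverse peaks over 250 kb (444 and 639, 41.0% forward) and the opposite on its left. AXIN2 was not called by strand (log2 ratio -0.05, limma adjusted p = 0.888). It nevertheless lay in a reverse run of 450 kb (413 and 720, 36.5% forward), with all 4 libraries in agreement in 6 of 9 bins. Such runs were therefore not limited to the called genes. These stretches were drawn from the same peaks as the test and are a description only. Where the strands change along the chromosome was not compared with replication or transcription maps here.

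**Figure D5:**
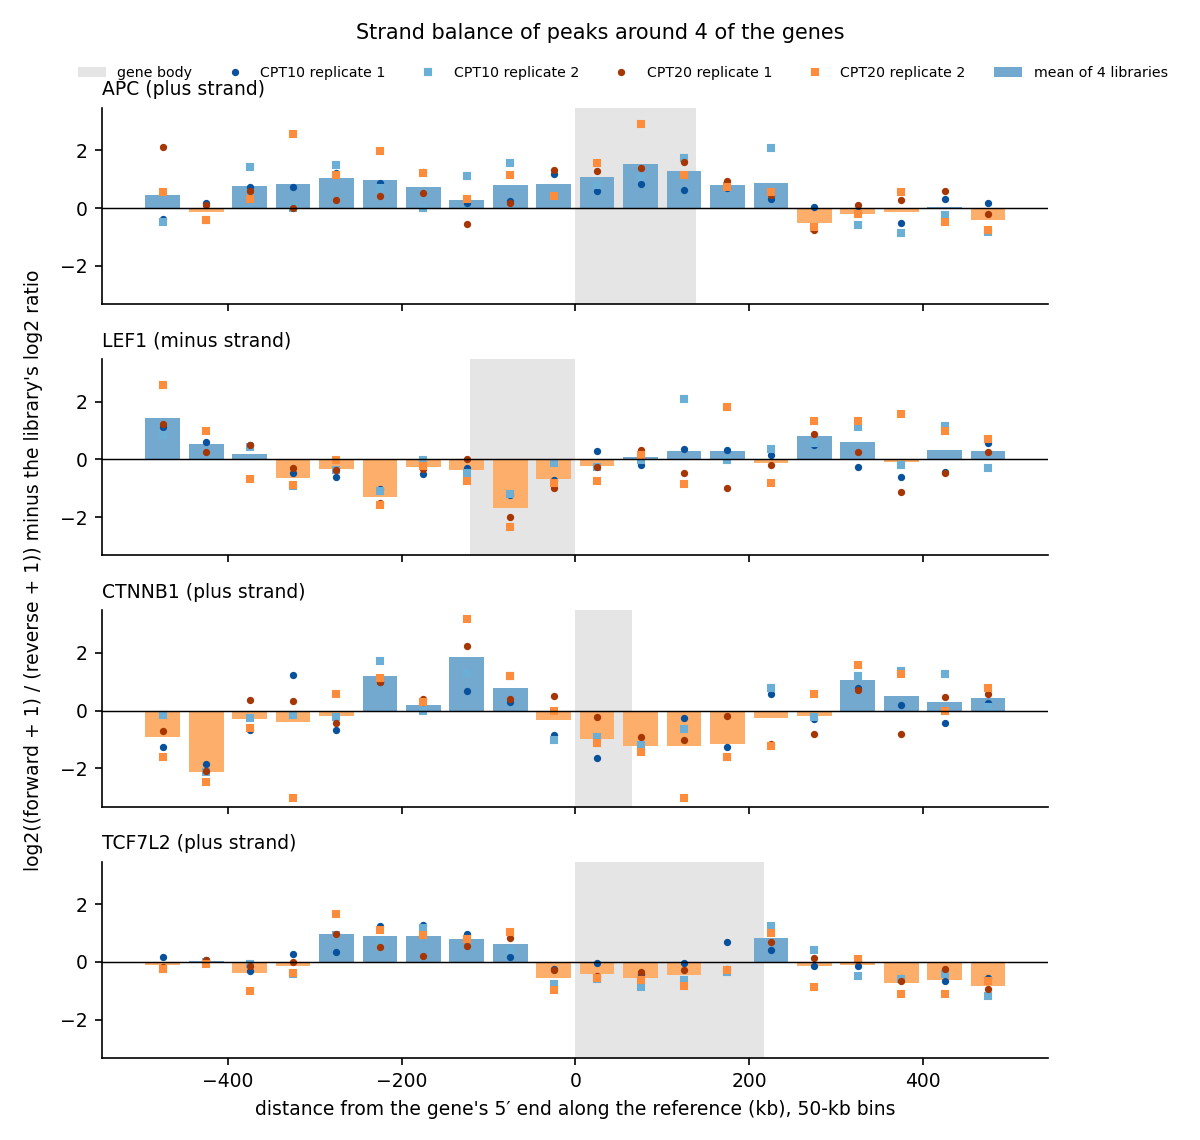
Strand balance in 50-kb bins over 500 kb on each side of the 5′ end of APC, LEF1, CTNNB1 and TCF7L2 (x axis, along the reference; y axis, log2 of forward over reverse peaks minus that of the library, so that 0 is the library). Bars are means of 4 libraries, points are libraries and grey marks the gene body. Runs of bars of one sign reach past both ends of APC (650 kb), LEF1 (400 kb) and CTNNB1 (350 kb), and the run at TCF7L2 (250 kb) stops inside the gene. A reverse run of 450 kb at AXIN2, a gene not called by strand, is not drawn.

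For context, 79 other genes of the pathway were tested against their surroundings in the same fit. Of these, 14 were above and 4 below at an adjusted p under 0.05 (the background of all genes being 19.1% and 7.98%), with a median log2 ratio of -0.08. The 5 with the smallest adjusted p among those above were WNT16, a ligand (log2 ratio 1.41 ± 0.18, limma adjusted p = 7.88e-05), BCL9, a co-activator of β-catenin (1.14 ± 0.15), CSNK1A1, the kinase that primes β-catenin for destruction (0.93 ± 0.12), the secreted inhibitor DKK1 (1.40 ± 0.23) and the kinase CSNK1D (0.60 ± 0.11). The 4 below were the secreted inhibitor WIF1 (-0.57 ± 0.15), the ligand WNT3 (-0.44 ± 0.12), WLS, which carries Wnt ligands to the cell surface (-0.39 ± 0.11), and the R-spondin receptor LGR4 (-0.31 ± 0.11). BCL9 did not pass with 250 kb as surroundings (adjusted p = 0.0642), and each of the 4 below failed to pass under at least 2 of 17 alternatives. WNT16, CSNK1A1, DKK1 and CSNK1D passed under every alternative that gave them enough expected peaks. By strand, 17 of the 79 were forward-rich and 6 reverse-rich (all genes, 12.8% and 13.2%). For the time comparison none of the 79 passed, with 3 at an unadjusted p under 0.05.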

How the data were processed

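END-seq peaks were measured in HCT116 cells treated with 10 µM CPT for 10 or 20 min, with 2 biological replicates each and a forward and a reverse list per library. Per the study's methods, the authors trimmed reads with Trim Galore, aligned them to hg19 with Bowtie2, kept properly paired reads above a mapping quality limit with SAMtools, duplicates included, and called peaks per library and strand with MACS2 against untreated cells, with no lambda and a q threshold of 0.05. Scaling to the spike-in followed peak calling, so that peak numbers are not scaled to it. Intervals here cover counting error only. The deposited lists hold, as MACS2 writes them, a score, a fold enrichment (a ratio over background), and −log10 p-values and −log10 q-values. The score and −log10 p were not used further. Lists were called separately in each library, so the number of peaks depends on its depth, which was not used here, and only peak numbers (573511 to 1415310 per library) stand for it.

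The 10 genes, the 79 other pathway genes and the tests were chosen with earlier results of these data known. Gene bodies came from GENCODE release 44 mapped to GRCh37, whose sequence is that of hg19, and sequences were read from this genome. A peak counted where any base overlapped the window. Expected peaks came from the 1 Mb on each side, or, for the time comparison, from the library. Genes with a mean of at least 3 expected peaks were tested with limma (version 3.58.1, R 4.3.3, empirical Bayes with a trend) on log2 ratios with a pseudocount of 1, with Benjamini-Hochberg adjustment over 19458 genes. Totals over the 10 genes were compared with two-sided exact permutation tests over the 4 libraries. Counting used Python 3.11.15 with pandas 2.3.3 and NumPy 2.4.6, Wilson intervals (95%) used statsmodels 0.14.6, and figures used matplotlib 3.10.9. The scripts were tested on simulated data.

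All 10 genes are named, as are up to 5 other pathway genes per direction with the smallest adjusted p, and at most 10 replicated sites, those at both times first and then by the smallest −log10 q. Alternatives were a −log10 q of at least 3 or 10, lists cut to the length of the shortest, gene bodies only, summits inside the window, pairing distances of 50 and 500 bp, surroundings of 250 kb and 5 Mb, a pseudocount of 0.25, no minimum expected number, removal of a GC trend, the replicate number as a block and each library left out. The strand test and the settings without the highest RNF43 flank peak were added after the data were seen. The methods list 1 library of each condition under each of 2 experiments, and the labels number the replicates without naming the experiment. If the numbers stand for the experiments, they pair the samples. The fits without the block are given first, with the blocked value beside a call that it changes. No peaks of untreated cells were analysed here.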

Additional observations from a re-analysis of the deposited data

Results flagged for a closer look

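ZNRF3 stood out because its peaks relative to the surroundings lay above 1 in both libraries of 10 min and below 1 in both libraries of 20 min. Its density was 1.06 and 1.09 times that of the surroundings in the CPT10 libraries, and 0.955 and 0.725 times in the CPT20 libraries. The mean log2 ratio, with 1 added to observed and expected peaks, was lower at 20 min, by a difference of -0.36. In limma with expected peaks from the surroundings, the CPT20 minus CPT10 difference of ZNRF3 was -0.39 (limma adjusted p = 1.00), so it did not pass, and 0.0% of all genes did.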

How the results depend on the processing

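The log2 ratio of CPT20 to CPT10 for peaks over the 10 genes changed sign with lists of equal length (0.0142), and leaving out 1 library at a time gave -0.86 to 0.0939. For paired sites it was 0.0636 at a −log10 q of at least 3, 0 at 10 and 0.33 with lists of equal length, and -1.35 to 0.42 without single libraries, with 0.29 without CPT10 replicate 1. Replicated sites at 10 min fell to 7 (5 transient) at a −log10 q of at least 3. At 10 there was 1, transient, with 0 at 20 min, 0 persistent and 0 late, and pairing up to 500 bp gave 31 at 10 min, 7 persistent and 23 transient. Replicated sites need both libraries of a time and were not computed without one.

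Against the surroundings, 2 of the 10 genes instead of 1 were lower with lists of equal length (AXIN1 and NKD1). At a −log10 q of at least 10, 281 genes were higher and 423 lower. Leaving out 1 library gave 2421 to 3215 higher genes. For time, leaving out 1 library gave 0 to 1 of the 10 genes higher (AXIN1), and over all genes 1 to 19 higher and 0 to 193 lower. By strand, none of the 10 passed at a −log10 q of at least 10 (0 forward-rich and 0 reverse-rich, with 70 and 71 of all genes), and 1 instead of 2 was reverse-rich with lists of equal length, with gene bodies only and with a pseudocount of 0.25 (1577 and 1700 of all genes). Leaving out 1 library gave 0 to 1 forward-rich and 0 to 2 reverse-rich of the 10, and 0 to 1882 and 0 to 2021 of all genes. The cause of these changes was not tested.

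Deviations of samples with the same replicate number correlated at 0.244 relative to the library and 0.127 relative to the surroundings over 19458 genes, with only 2 pairs. With the replicate number as a block, 16 genes were higher and 28 lower at 20 min, AXIN1 among the higher (1 of the 10), and with a GC trend removed as well 11 and 30, again with 1 of the 10. CTNNB1 passed against its surroundings with the block (adjusted p = 0.0478). For the totals the block gave log2 ratios of -0.37 for peaks, 0.17 for the share and -0.40 for sites. It changed no other call among the 10 genes. Lists that differ 2 times or more in length limit what small windows such as that of ASCL2 can show, and copy number, read depth and untreated cells were not analysed here.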
